A study of Neurospora crassa with 34 samples.

Results

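AR16 is a strain of the filamentous fungus Neurospora crassa that carries a pericentric inversion of linkage group I (LG I), and the data described here are the poly-A+ mRNA read counts of its 2 libraries set against those of 6 other rearrangement strains. The 2 AR16 libraries were chosen by their label and are 2 of the 14 mRNA libraries of translocation strains and of 16 mRNA libraries in all. AR16 was isolate N5100, of mating type a, with In(IL->IR)AR16. The 12 other libraries, 2 for each strain, came from ALS159 with T(IV->VI), OY329 with T(VI->III), OY337 with T(II->IV) and the al-2 marker, OY350 with T(VIL->IR), UK2-32 with T(IVR->VL), and UK3-41 with T(VR) and the inl marker, all given as mating type A in the study's strain list. Every strain was grown in liquid Vogel's medium with 1.5% sucrose for 16 hours at 32 °C and is labelled as germinated conidia. Each strain was 1 isolate. The 16 mRNA libraries include none of wild type, and the 2 with a set-7 deletion were not analysed here. A difference between AR16 and the rest can therefore go with the inversion, the mating type, the markers or the strain background, and these cannot be told apart.

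A translocation or inversion moves genes next to new neighbours and to new distances from a chromosome end. In Neurospora, genes near the chromosome ends often carry methylated histone H3 (H3K27me2/3, with 2 or 3 methyl groups on its lysine 27), a repressive mark set by the Polycomb enzyme SET-7. The deposited gain and loss table lists 23 genes for AR16, 14 with a gain and 9 with a loss of the mark, and the 21 of them that were tested lie on LG I. The account below is mainly about the genes outside that list, which are 8149 of the 8170 genes tested.

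The AR16 libraries held 8065218 and 8161427 reads on genes, and the 12 others 6435058 to 27994440. Only OY329 replicate 1, which also carried a longer index, lay above 8876052 reads. The spread between replicates exceeded counting noise in every strain (chi-square divided by genes, 76.1 in AR16, 198 in OY329 and 12.02 to 41.8 elsewhere). Only OY329 thus had a larger value than AR16. The summed level of 4 vegetative markers (gpd-1, eno, tef-1 and act) was 43353 and 43847 CPM (counts scaled to a common library total) in AR16, inside the 25280 to 55415 CPM of the other libraries. The 8 conidiation markers summed to 1379 and 4565 CPM in AR16, against 252 to 16634 CPM in the others, so the AR16 replicates stood apart from each other at these genes. The 8 sexual markers summed to 4.00 and 6.12 CPM in AR16, against 2.77 to 137 CPM, and 5 of them had no read in AR16. Among these 5 were matA-1, matA-2, matA-3 and ccg-4, and the matA genes follow the mating type and say nothing of sexual development. The mating type gene matA-1 had 0 reads in both AR16 libraries, as mat a requires, against 294 and 276 reads in UK3-41 and 80 and 68 reads in OY337. It also had 0 reads in both libraries labelled UK2-32, although the strain list gives mat A. ALS159, also listed as mat A, had only 7 and 1 reads, so the absent reads do not settle the mating type of UK2-32. The pheromone precursor gene ccg-4 had no reads in AR16, against 803 and 389 reads in UK3-41 and at most 5 in the other 10 libraries, and the pheromone receptor gene pre-1 had 2.12 and 1.77 CPM, against 1.06 to 16.6 CPM. None of the 14 mating genes tested was called against the mean of all 6 strains. With UK2-32 left out of the mean matA-1 was called lower (edgeR adjusted p = 0.00852), and with ALS159 left out pre-1 was called lower (log2 fold change -1.42, adjusted p = 0.0351).

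Set against the mean of the other 6 strains, AR16 had 763 genes called, 9.34% of the genes tested, with 512 higher (6.27%) and 251 lower (3.07%) (edgeR quasi-likelihood test, adjusted p under 0.05). Outside the list of H3K27me2/3 genes these counts were 509 and 245. Both AR16 libraries lay below all 12 others at 157 genes, 1.92% of those tested, and above all 12 at 70 genes, 0.857%. Of the genes called lower, 124 had no overlap between the groups. Of the genes called higher only 48 had none, and at the other 464 at least 1 library of another strain reached the AR16 range. The median log2 fold change was 0.95 over the genes called higher, -1.15 over those called lower and 0.04 over all genes tested. The numbers of calls moved with the libraries used. The genes called higher were 152 without AR16 replicate 2, 302 without OY337 replicate 1, 336 without UK2-32 replicate 2, 338 without ALS159 replicate 1 and 778 without OY329 replicate 1. The genes called lower were 63 without AR16 replicate 2 and 377 without OY329 replicate 1. Leaving UK2-32 out of the mean gave 307 higher and 185 lower. The p-values above rest on the spread between the 2 libraries of each strain, pooled over strains, and do not measure the spread among strains. Treating the 12 other libraries as 1 group with no strain term counts differences among the 6 strains as spread. It left 1 gene called higher and 11 called lower.

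The mean of 6 strains hides how unequal they were as partners of AR16. OY350 was the nearest to AR16, with 114 genes called higher in AR16 (1.4% of those tested) and 138 lower (1.69%). OY337 followed, with 372 higher (4.55%) and 317 lower (3.88%). Against UK2-32 there were 958 higher (11.7%) and 865 lower (10.6%), against ALS159 1307 (16.0%) and 949 (11.6%), against UK3-41 1378 (16.9%) and 1153 (14.1%), and against OY329 1438 (17.6%) and 1311 (16.0%). These 6 comparisons share the AR16 libraries. A total of 44 genes, 0.539% of those tested, were called in 1 direction against every strain: 41 were lower in AR16 (0.502%) and 3 were higher (0.0367%), and 41 of the 44 are not on the H3K27me2/3 list. This count was 22 without AR16 replicate 2, 27 without ALS159 replicate 2 and 29 without either OY337 replicate 1 or UK2-32 replicate 2. Calls against the mean that held whichever of the 6 strains was left out of it numbered 122 of the 251 lower and 133 of the 512 higher.

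**Figure D1:**
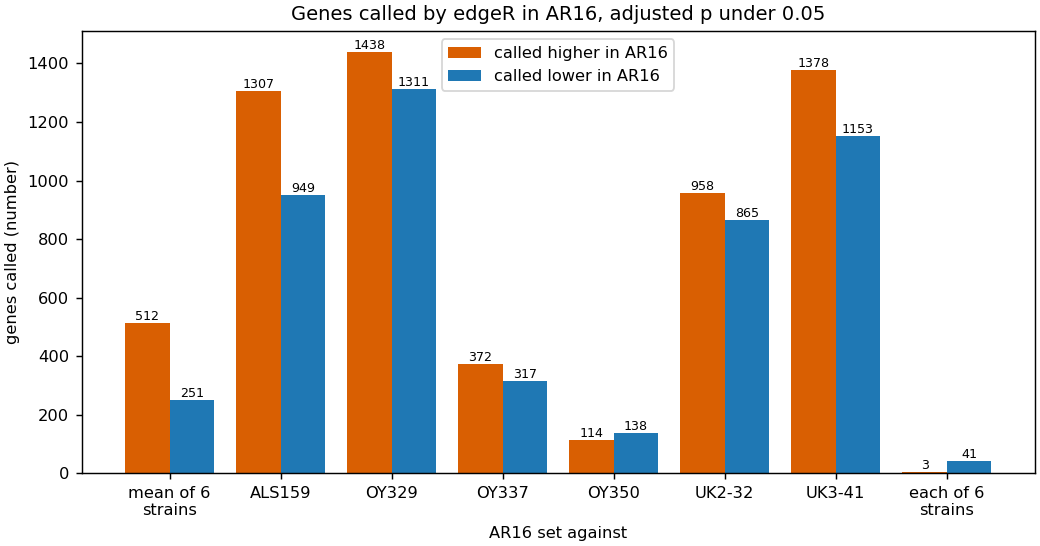
Number of genes called by edgeR at an adjusted p under 0.05 (vertical axis) with AR16 set against the mean of the 6 strains, each strain alone, and all 6 alike (horizontal axis), where orange bars are genes higher and blue bars genes lower in AR16. The bars for OY350 (114 and 138) are the lowest of the single-strain comparisons, and 3 higher against 41 lower genes remain when every strain has to agree.

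The genes that were lower in AR16 than in every other strain lay mainly on 3 linkage groups, and closest together on LG VI. Of the 44 genes called against every strain, 3 of them higher, 42 were on LG I, LG III and LG VI. These groups hold 2069, 1011 and 821 of the 8170 tested genes. By linkage group, 8.61% of the tested genes of LG III, 5.72% of LG VI and 3.14% of LG I were called lower, against 0.828% to 1.66% on LG II, IV, V and VII. Genes called higher did not follow these groups, with 4.99% on LG VI, 6.33% on LG III, 5.03% on LG I and the top share, 10.1%, on LG VII. When the tested genes were cut into windows of 60 in gene order, 19 of 140 windows held at least 3 genes below all 12 libraries. Joined across single windows with fewer, of which LG I had 1 and LG III 2 (with 1 or 2 such genes each), they ran from NCU16311 to NCU02468 on LG I (7 windows), from NCU06479 to NCU08541 on LG III (12 windows) and from NCU05951 to NCU05040 near one end of LG VI (2 windows), with 1 more window on LG I. These stretches were marked out after their values were seen and by the genes below all 12 libraries, so their counts are a description. The 3 stretches held 1260 tested genes, 122 of the 157 genes below all 12 libraries and 37 of the 41 genes lower against every strain. Inside them 161 genes were called lower (12.8%) and 74 higher (5.87%), and outside them 90 were called lower (1.30%) and 438 higher (6.34%). The 14 listed H3K27me2/3 gain genes all lay in the LG I stretch, where 36 of 406 unlisted genes were also called lower. No listed gene lay in the stretches of LG III and LG VI.

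**Figure D2:**
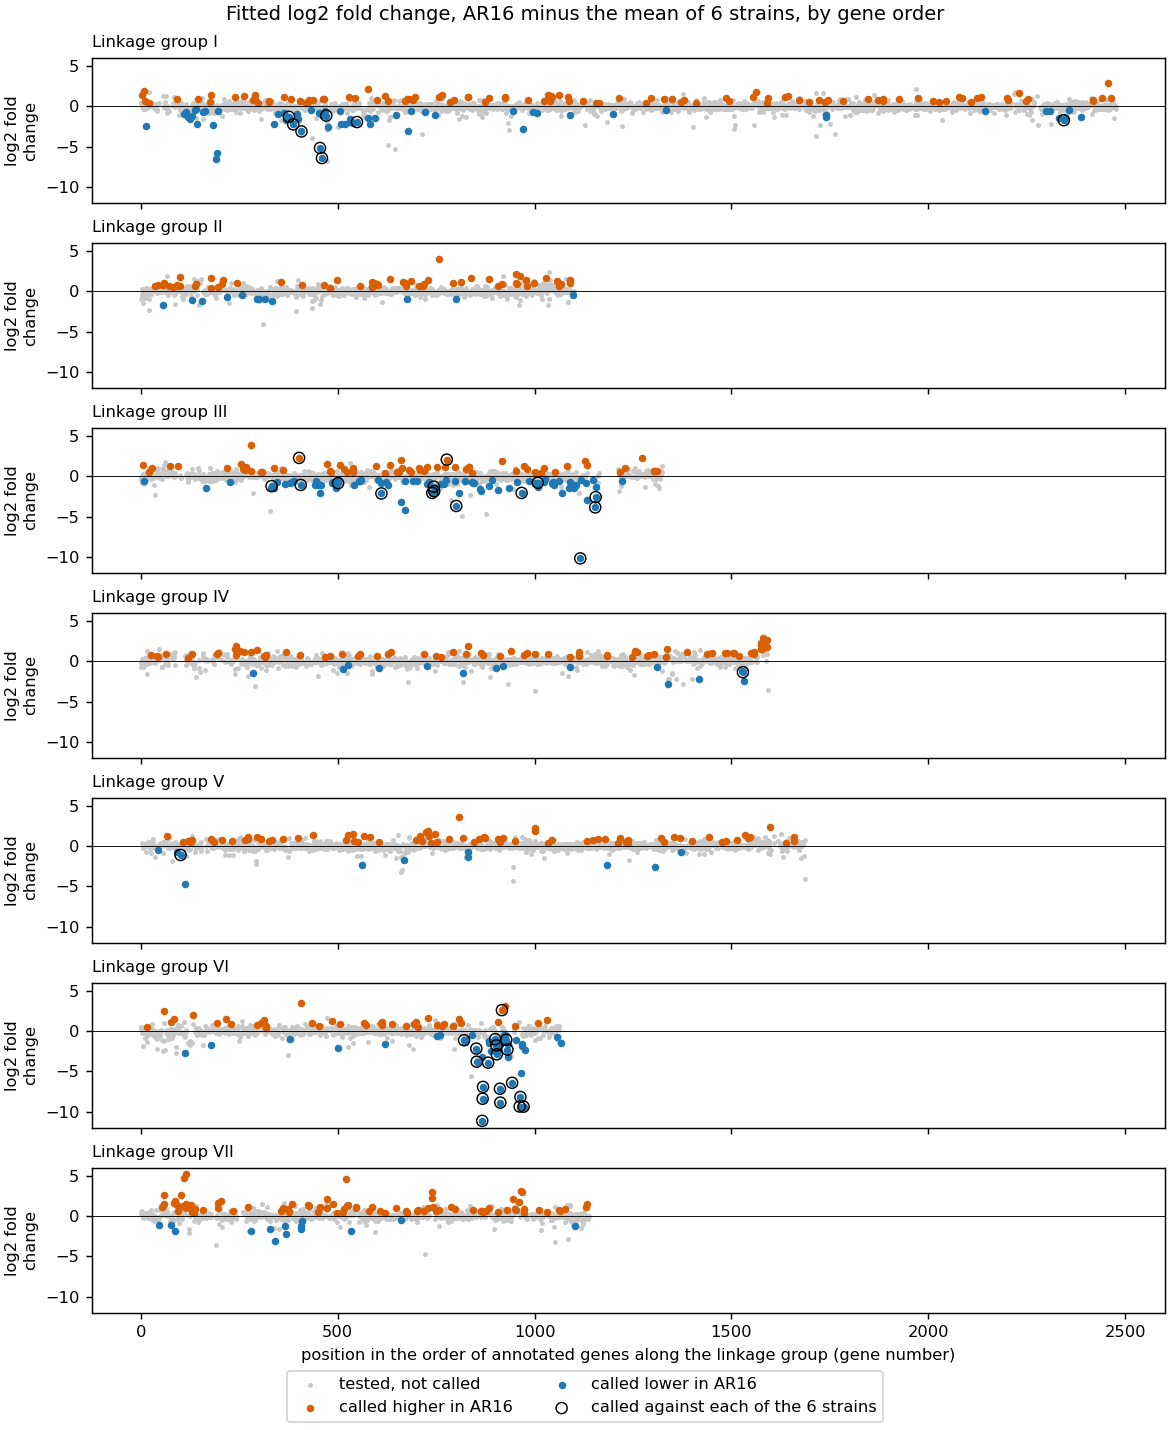
Fitted log2 fold change of AR16 minus the mean of the 6 strains (vertical axis) for each tested gene in gene order along the 7 linkage groups (horizontal axis), where grey points were not called, orange points were called higher, blue points were called lower and black rings mark the 44 genes called against each of the 6 strains. The rings lie mostly on LG I, LG III and, most densely, the end of LG VI, while orange points lie on every linkage group. The size of the fold is arbitrary where AR16 or another strain had no reads.

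The other strains give a scale for this. By the same rule, the genes at which both libraries of a strain lay below the 12 libraries of the rest were fewest in OY350 (74) and OY337 (133). UK2-32 had 462 of them, OY329 895, ALS159 1046 and UK3-41 1158. Of these, 10.8% to 16.2% lay in the stretches marked out in AR16, against 77.7% of the AR16 genes, which had defined them. The stretches hold 1260 of the 8170 tested genes. They held 122 such genes of AR16, 137 of ALS159, 125 of UK3-41 and 117 of OY329. UK2-32 had 69 there, OY337 18 and OY350 12. The highest number in 1 window was 19 for AR16 on LG VI, against 17 for OY337 on LG IV and 25 for UK3-41 on LG I. Strains other than AR16 therefore also had windows with many low genes, inside these stretches as well as elsewhere. In the LG I and LG III stretches ALS159 (55 and 62), OY329 (34 and 79) and UK3-41 (45 and 69) had more than AR16 (30 and 61). In the LG VI stretch AR16 had 31, against 20 in ALS159 and 11 or fewer in the rest.

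**Figure D3:**
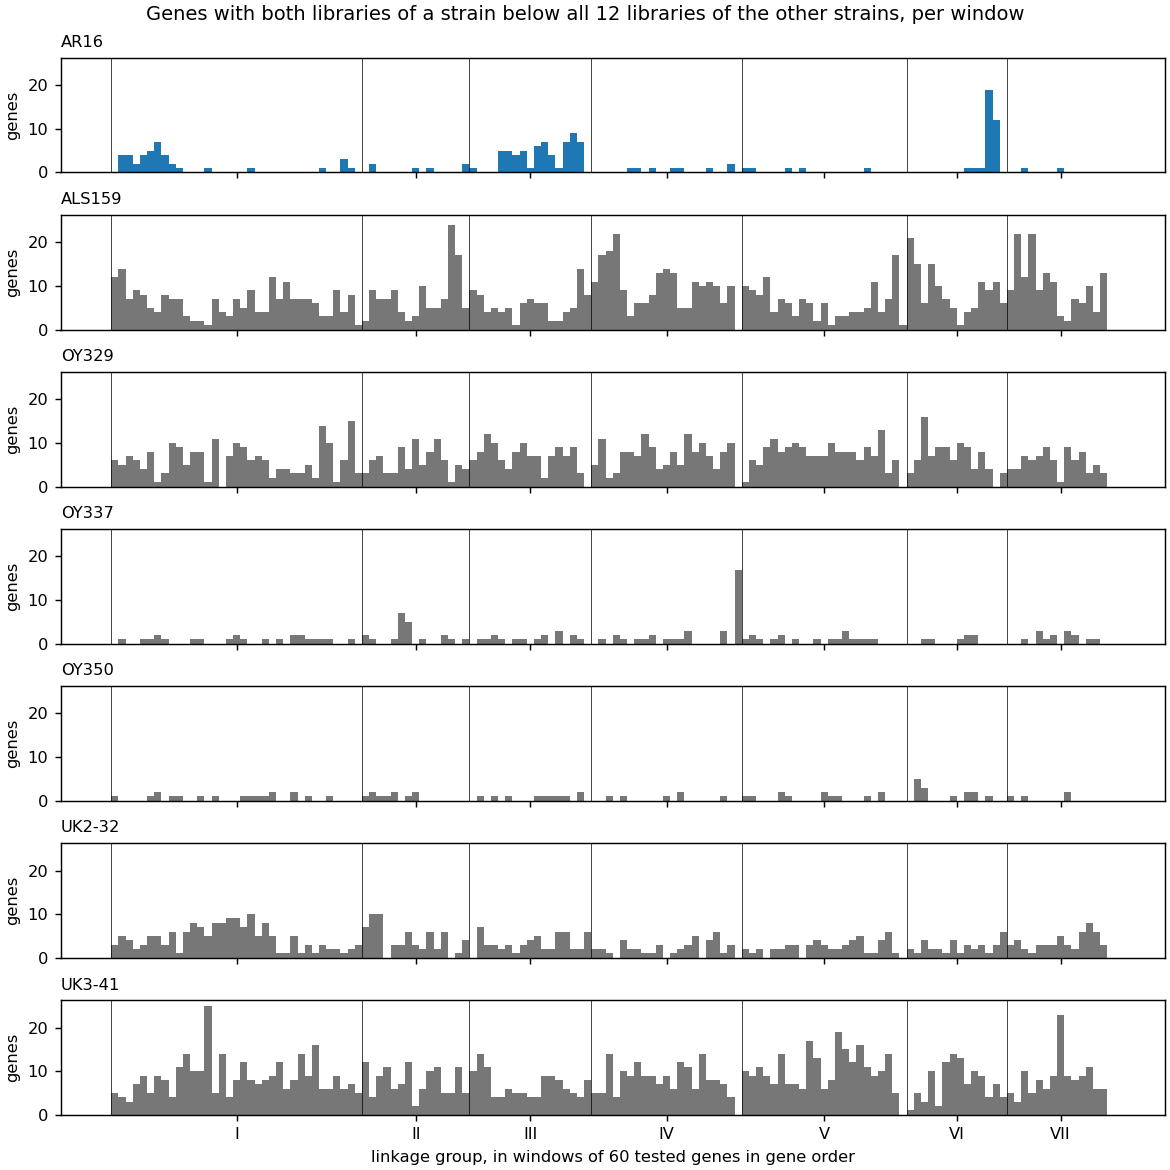
Number of genes at which both libraries of a strain lay below all 12 libraries of the other strains (vertical axis) in windows of 60 tested genes in the order of LG I to LG VII (horizontal axis), with AR16 in blue at the top and the other 6 strains in grey. AR16 reaches 19 genes in a window at the end of LG VI and OY337 reaches 17 at the end of LG IV, while ALS159, OY329 and UK3-41 have low genes over all linkage groups.

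The LG VI stretch held most of the genes with no or almost no reads in AR16. Whether an absence of reads reflects low transcription was not tested. NCU05921 had 0 reads in both AR16 libraries, against a lowest, median and highest level of 16.1, 29.8 and 54.1 CPM in the 12 others. The next genes in the order were low as well: NCU05920 had 0 reads in AR16, against 1.80 to 11.01 CPM, and NCU05919 had 1 read in each AR16 library, against 7.19 to 38.6 CPM. Against a floor of 3 counts over both libraries, the level of NCU05921 was at least 175-fold lower in AR16 and that of NCU05920 at least 31.9-fold lower. The ratio of AR16 to the other libraries was 0.00640 for NCU05919, with an exact binomial 95% interval of 0.000775 to 0.0231. All 3 genes were called against each of the 6 strains (edgeR adjusted p against the mean 6.64e-06, 0.000746 and 1.24e-05). The gene model of NCU05921 overlaps that of NCU05922, and how the authors counted reads shared by overlapping genes is not given in the sources used here.

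Further along the same stretch, NCU05130 had 0 and 0.118 CPM in AR16, against 21.7, 35.2 and 51.5 CPM as the lowest, median and highest of the others, a ratio of 0.00185 with an interval of 4.69e-05 to 0.0103 (edgeR adjusted p = 1.8e-05). NCU05074 had 0 reads in both AR16 libraries, against 5.43 to 13.1 CPM, and was at least 50.3-fold lower. NCU05083 had 0 reads, against 2.08 to 42.7 CPM, and was at least 69.9-fold lower. None of these groups overlapped. In all, 8 genes had at most 1 read in each AR16 library and at least 1 CPM in each of the 12 others, 6 of them on LG VI, 1 on LG III and 1 on LG I, and 5 of the 8 had no read at all. No gene showed the reverse, with at most 1 read in each of the 12 other libraries and at least 1 CPM in both AR16 libraries.

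Other genes of the LG VI stretch were lower in AR16 but still had reads. NCU10883 had 38.6 and 25.3 CPM in AR16, against 143, 245 and 381 CPM as the lowest, median and highest of the others (log2 fold change -2.87 ± 0.41 SE, edgeR adjusted p = 0.00314). NCU05906 had 2.37 and 0.942 CPM in AR16, against 12.4 to 46.96 CPM (log2 fold change -3.91 ± 0.30 SE, edgeR adjusted p = 5.05e-05). The groups did not overlap at either gene. The gene with the clearest known role was vma-10, which encodes a subunit of the vacuolar ATPase, the pump that acidifies the vacuole. It had 85.8 and 88.6 CPM in AR16, against 121, 193 and 235 CPM in the others (log2 fold change -1.06 ± 0.12 SE, edgeR adjusted p = 0.000843), so AR16 held less than any other library. The other 13 vacuolar ATPase genes tested were not called, and the median of the 14 was -0.03, against 0.04 for all genes. The 1 call is 7.14% of the list, where 3.07% of all genes were called lower. The model of vma-10 overlaps NCU05117. In the gene order, 14 genes called lower formed 1 run from NCU05123 to NCU05078 that included vma-10, and 8 more formed a run from NCU05145 to NCU05130.

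**Figure D4:**
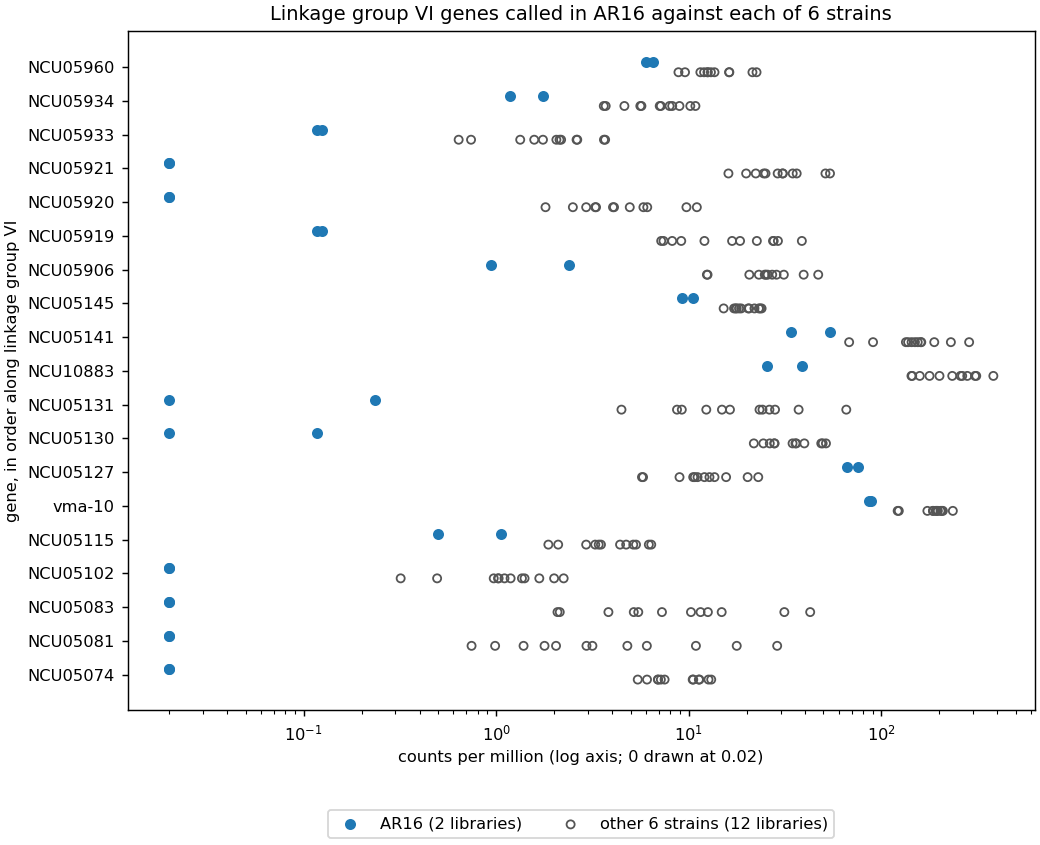
Level in CPM (horizontal log axis, 0 drawn at 0.02) of the 19 LG VI genes called in AR16 against each of the 6 strains, from top to bottom in gene order, with the 2 AR16 libraries as filled blue points above the 12 other libraries as open circles. The AR16 points lie left of all circles at 18 genes and right of them at NCU05127.

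One gene of the LG VI stretch went the other way. NCU05127 had 75.8 and 66.6 CPM in AR16, against 5.71, 11.6 and 22.9 CPM as the lowest, median and highest of the others (log2 fold change 2.61 ± 0.13 SE, edgeR adjusted p = 4.11e-06). It was the only gene called higher when the 12 other libraries were treated as 1 group, and its model overlaps NCU05128. The other 2 genes higher against every strain were on LG III. NCU06204 had 81.8 and 35.0 CPM in AR16, against 6.39 to 27.6 CPM (log2 fold change 2.28 ± 0.25 SE, edgeR adjusted p = 0.000719). NCU00282 had 144 and 70.3 CPM in AR16, against 10.1 to 51.9 CPM (log2 fold change 2.07 ± 0.21 SE, edgeR adjusted p = 0.000486). At both genes the AR16 replicates differed from each other by more than the lower of them differed from the highest other library, and neither overlapped the others. NCU00419 on LG III was also above all 12 libraries, with 30.9 and 45.6 CPM in AR16, against 2.55 to 28.8 CPM (log2 fold change 1.86 ± 0.21 SE, edgeR adjusted p = 0.000746), though it was not called against each strain. The RefSeq table gives no symbol for these 4 genes.

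On LG III the genes lower in AR16 were spread over a longer stretch. NCU07519 had 0 reads in both AR16 libraries, against 7.88, 16.5 and 21.4 CPM as the lowest, median and highest of the others, and was at least 91.3-fold lower (edgeR adjusted p = 3.91e-06). NCU00304 had 4.12 and 4.36 CPM in AR16, against 27.2 to 86.5 CPM (log2 fold change -3.68 ± 0.32 SE, edgeR adjusted p = 0.000115). The neighbours NCU08223 and NCU08224 were at 2.50 and 2.24 CPM against 10.4 to 93.2 CPM, and at 12.6 and 21.1 CPM against 43.3 to 259 CPM. None of these 4 overlapped the other strains. Of the symbols in the stretch, set-2, which encodes the histone H3 lysine 36 methyltransferase, had 7.25 and 10.4 CPM in AR16, against 8.53 to 27.3 CPM (log2 fold change -0.94 ± 0.17 SE, edgeR adjusted p = 0.00918), and the groups overlapped. Its call was lost without AR16 replicate 1 (adjusted p = 0.0522). The small RNA processing gene qip, with 11.9 and 11.8 CPM in AR16 against 13.2 to 27.0 CPM, and the complex I gene nuo10.6, with 137 and 140 CPM against 146 to 249 CPM, lay below all others by little. The qip call was lost in 5 and the nuo10.6 call in 12 of the fits that left out 1 of the 14 libraries (edgeR adjusted p up to 0.165 and 0.173). The neighbour of qip, tim14 of the mitochondrial import motor, overlaps it in the annotation and had 62.3 and 65.0 CPM in AR16, against 62.1 to 127 CPM, with its call lost in 10 of those fits (adjusted p up to 0.18), and it was the 1 call among 18 mitochondrial import genes. The other complex I genes, 28 of 29, were not called. The single calls are 3.45% of the complex I list and 5.56% of the mitochondrial import list, where 3.07% of all genes were called lower.

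The LG I stretch contains the mating type locus. The mutagen sensitivity gene mus-42 had 4.62 and 4.83 CPM in AR16, against 8.05, 11.1 and 15.5 CPM as the lowest, median and highest of the others (log2 fold change -1.28 ± 0.20 SE, edgeR adjusted p = 0.00507), with no overlap and a call against each of the 6 strains. Of 25 DNA repair genes named mus or uvs it was the 1 called (4%, where 3.07% of all genes were called lower). SET-7, the enzyme that methylates H3 lysine 27, is encoded in the same stretch. Its gene set-7 had 8.87 and 9.06 CPM in AR16, against 9.52, 18.2 and 29.8 CPM (log2 fold change -0.93 ± 0.16 SE, edgeR adjusted p = 0.00725). AR16 lay below all 12 libraries, but OY329 was close at 9.71 and 9.52 CPM, and without AR16 replicate 2 the call was lost (adjusted p = 0.0623). The gene eat-6 had 19.0 and 16.2 CPM in AR16, against 20.8 to 31.9 CPM, and its call was lost in 5 fits without 1 library (adjusted p up to 0.25). On other linkage groups, dim-5, which encodes the histone H3 lysine 9 methyltransferase, had 5.25 and 5.42 CPM in AR16, against 5.64 to 10.6 CPM (log2 fold change -0.60 ± 0.16 SE, edgeR adjusted p = 0.0384), with the call lost in 12 such fits (adjusted p up to 0.193). Of 14 chromatin genes, set-7 and dim-5 were called lower and none higher, where 3.07% of all genes were called lower, and the median was -0.05.

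Of the genes on the H3K27me2/3 list, 6 of the 14 listed with a gain were called lower and 1 higher, with a median log2 fold change of -0.93, where 3.07% of all genes were called lower, 6.27% higher, and 10% lower in the LG I stretch that holds all 14. Likewise 2 of the 7 tested genes listed with a loss were called higher and none was called lower, with a median of 0.41. NCU01972, listed with a gain, had 0.125 and 0 CPM in AR16, against 1.17, 7.51 and 25.7 CPM in the others (edgeR adjusted p = 0.000875). NCU01976, also with a gain, had 0.125 and 0.118 CPM, against 0.852 to 22.2 CPM (edgeR adjusted p = 0.000328). NCU08630, listed with a loss near the other end of LG I, had 4.50 and 4.83 CPM in AR16, against 0 to 3.27 CPM (edgeR adjusted p = 0.00106). None of the 3 overlapped the other strains. These 9 called genes are a small share of the 763 calls, but only 14 and 7 of the 8170 tested genes were listed. Of all genes tested, 9.34% were called.

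Of the lists examined, amino acid synthesis held the most genes called higher. Of its 47 genes, taken by symbol, 14 were called higher and none lower, where 6.27% of all genes were called higher, and the median log2 fold change was 0.50 against 0.04 for all genes. The 14 were arg-3, arg-4, arg-6, aro-1, aro-7, hom-1, ilv-2, ilv-4, leu-2, leu-6, lys-3, lys-5, lys-6 and trp-1, so arginine, aromatic, branched-chain, lysine and homoserine routes all had members, with fold changes of 0.54 for trp-1 to 1.32 for leu-2. The fitted value was above 0 for 45 of the 47. The gene of the cross-pathway control activator CPC-1, which in Neurospora induces amino acid synthesis genes on starvation for an amino acid, was looked up after these values were seen. It had 1236 and 944 CPM in AR16, against 452 to 1315 CPM (log2 fold change 0.54 ± 0.14 SE, edgeR adjusted p = 0.0413), within the range of the others, and its call was lost with OY329, OY337, OY350 or UK2-32 left out of the mean (adjusted p = 0.053, 0.0788, 0.0633 and 0.14). Of the 14 calls, 7 held whichever of the 6 strains was left out of the mean. Without AR16 replicate 2 only 2 genes were called and the median was 0.39, while 26 were called without OY329 replicate 1 and 25 without OY329 replicate 3. With UK2-32 left out of the mean 7 were called, with OY337 left out 8 and with UK3-41 left out 26.

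AR16 was not the highest strain for this group. The median deviation of the 47 genes from their mean over the 7 strains was 0.33 and 0.56 log2 units in the AR16 libraries, against 0.83 and 0.70 in UK3-41, 0.12 and 0.37 in ALS159, -0.03 and 0.12 in OY350, 0.02 and -0.51 in OY329, -0.47 and -0.36 in OY337 and -0.76 and -0.62 in UK2-32. AR16 lay below UK3-41, overlapped ALS159 and lay above the other 4 strains, and the replicates of OY329 stood apart. Against single strains, 37 of the 47 genes were called higher in AR16 than in UK2-32, where 11.7% of all genes were, 25 than in OY337 (4.55%), 24 than in OY329 (17.6%), 8 than in ALS159 (16.0%), 4 than in OY350 (1.4%) and 4 than in UK3-41 (16.9%). Against UK3-41, 10 of the 47 were called lower in AR16, where 14.1% of all genes were.

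**Figure D5:**
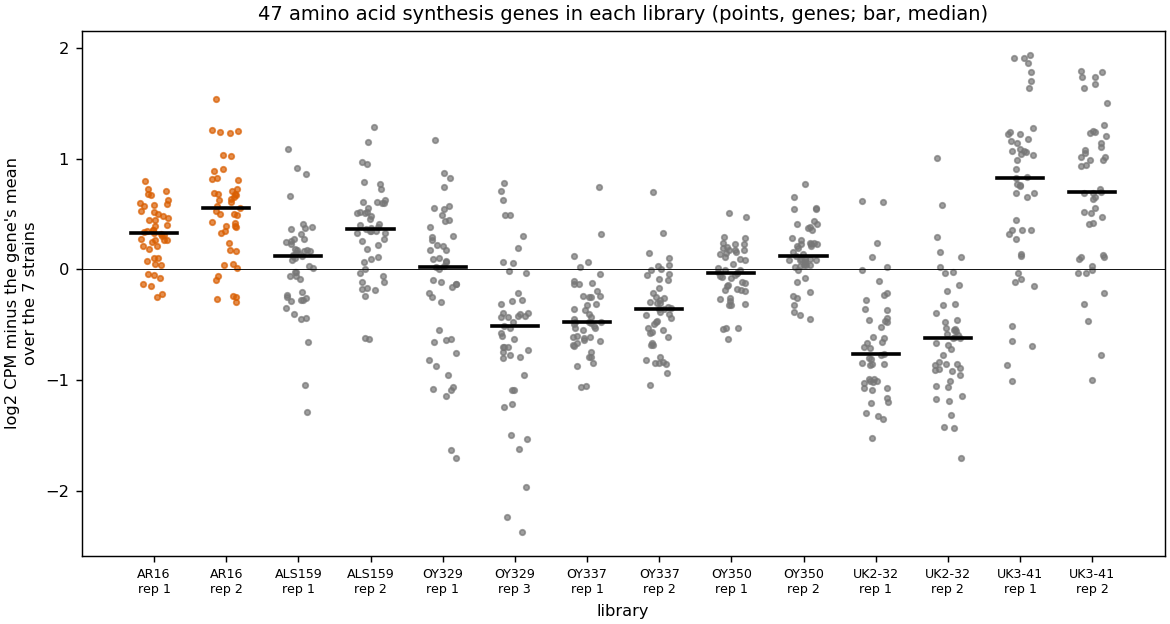
Level of each of 47 amino acid synthesis genes (points) as log2 CPM minus the gene's mean over the 7 strains (vertical axis) in each library (horizontal axis), with the AR16 libraries in orange at the left, the 12 others in grey and black bars at the medians. The AR16 medians of 0.33 and 0.56 lie above those of OY329, OY337, OY350 and UK2-32 and below the 0.83 and 0.70 of UK3-41.

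At 3 genes of these routes AR16 lay above every other library, UK3-41 included. The arginine gene arg-4 had 329 and 385 CPM in AR16, against 145, 189 and 304 CPM as the lowest, median and highest of the others (log2 fold change 0.82 ± 0.13 SE, edgeR adjusted p = 0.00471), with no overlap, and lost its call without AR16 replicate 2 (adjusted p = 0.0599). hom-1, for homoserine dehydrogenase, had 212 and 190 CPM in AR16, against 107 to 157 CPM (log2 fold change 0.58 ± 0.10 SE, edgeR adjusted p = 0.0091), and lost its call without AR16 replicate 1 (adjusted p = 0.0552). The tryptophan gene trp-1 had 94.6 and 103 CPM in AR16, against 46.6 to 89.3 CPM, and lost its call in 8 fits without 1 library (adjusted p up to 0.233). arg-3, which encodes a subunit of the arginine-specific carbamoyl phosphate synthetase, had 218 and 315 CPM in AR16, against 42.5, 97.7 and 479 CPM (log2 fold change 1.18 ± 0.16 SE, edgeR adjusted p = 0.00188), and the lysine gene lys-3, also below UK3-41, had 82.1 and 112 CPM, against 14.4, 32.6 and 163 CPM (log2 fold change 1.19 ± 0.18 SE, edgeR adjusted p = 0.00471), so at both the highest library was one of UK3-41. The call of lys-3 was lost without AR16 replicate 2 (adjusted p = 0.075).

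Of 7 purine synthesis genes 3 were called higher, gua-3, ad-7 and ad-8, and none lower, where 6.27% of all genes were called higher. The median was 0.58, and ad-3A, ad-4, ad-5 and ad-9 did not pass (edgeR adjusted p of 0.0638 to 0.733). gua-3 had 292 and 356 CPM in AR16, against 74.0, 152 and 263 CPM as the lowest, median and highest of the others (log2 fold change 1.15 ± 0.13 SE, edgeR adjusted p = 0.000875), with no overlap and a call that held in every fit without 1 library. ad-7, for the first enzyme of the pathway, had 78.8 and 149 CPM in AR16, against 21.6 to 156 CPM (log2 fold change 1.03 ± 0.18 SE, edgeR adjusted p = 0.0082), and lost its call without AR16 replicate 2 (adjusted p = 0.177). ad-8, for adenylosuccinate synthase, had 344 and 417 CPM in AR16, against 136 to 367 CPM, with the call lost in 10 fits without 1 library (adjusted p up to 0.29). Without AR16 replicate 2 only 1 of the 7 was called. Against UK2-32, 6 of the 7 were called higher in AR16, against ALS159 and OY337 3 each, against OY329 2, against UK3-41 1 higher and 1 lower, and against OY350 none.

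In nitrogen metabolism 2 of 9 genes were called higher and none lower, where 6.27% of all genes were called higher, and 1 of the 2 calls held whichever strain was left out of the mean. The gene am, for the NADP-specific glutamate dehydrogenase that fixes ammonium into glutamate, had 855 and 1084 CPM in AR16, against 1137 and 1505 CPM in ALS159, 202 to 530 CPM in OY329, OY337, OY350 and UK2-32, and 0 reads in both libraries of UK3-41. With UK3-41 left out of the mean its log2 fold change was 1.09 (edgeR adjusted p = 0.00599), and the larger fold fitted with UK3-41 depends on its absent reads. The AR16 values lay above those of 5 strains and below those of ALS159. gln-1, for glutamine synthetase, had 561 and 865 CPM in AR16, against 130, 423 and 924 CPM (log2 fold change 0.73 ± 0.15 SE, edgeR adjusted p = 0.0141), and its call was lost without AR16 replicate 2 (adjusted p = 0.236) and with OY329 left out of the mean (adjusted p = 0.108). qa-3, for the quinate dehydrogenase of the quinic acid cluster, had 6.87 and 5.18 CPM in AR16, against 1.81 to 3.71 CPM (log2 fold change 1.12 ± 0.21 SE, edgeR adjusted p = 0.0101), without overlap. It was the 1 of 6 cluster genes called (16.7%, where 6.27% of all genes were called higher). Its call was lost without AR16 replicate 1 (adjusted p = 0.0755). The kinase gene stk-51 had 34.5 and 33.8 CPM in AR16, against 15.6 to 27.1 CPM (log2 fold change 0.73 ± 0.11 SE, edgeR adjusted p = 0.0037), and the peroxin gene pex26 had 64.1 and 74.3 CPM, against 42.1 to 58.3 CPM, with its call lost without AR16 replicate 2 (adjusted p = 0.197). Other than pex26, no peroxin gene of 20 was called, so 5% were called higher, where 6.27% of all genes were.

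Some calls against the mean turned on 1 other strain. On LG IV, 12 neighbouring genes from NCU05170 to NCU10040, among them pmb and cat-4, were called higher in AR16 as 1 run. All 15 tested genes of that block had 0 reads in both OY337 libraries, and with OY337 left out of the mean none of the 12 was called and their fold changes ran from -0.33 to 0.76. Of the 512 genes called higher, 29 had a strain with no reads in either library, 17 of them OY337. ALS159 played this part elsewhere. The superoxide dismutase gene sod-2 had 195 and 119 CPM in AR16, against 4219 and 3816 CPM in ALS159 and 43.3 to 298 CPM in the other 10 libraries, and its log2 fold change of -0.77 (edgeR adjusted p = 0.0231) became 0.02 without ALS159 (adjusted p = 0.977). Its call was also lost without AR16 replicate 2 (adjusted p = 0.193). The second superoxide dismutase gene, sod-1, had 597 and 639 CPM in AR16, against 31.5 and 32.6 CPM in ALS159 and 410 to 865 CPM elsewhere, and its fold change of 0.85 became 0.17 without ALS159 (edgeR adjusted p = 0.57). Without AR16 replicate 2 it was not called (adjusted p = 0.0732). These were the calls among 8 oxidative stress genes, 12.5% higher and 12.5% lower, where 6.27% and 3.07% of all genes were.

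The phosphate permease gene pho-4 had 0.875 and 1.53 CPM in AR16, against 187 and 127 CPM in ALS159 and 0.389 to 20.5 CPM in the other 10 libraries, and without ALS159 it was not called (edgeR adjusted p = 0.291), nor without either AR16 replicate (adjusted p = 0.117 and 0.101) or OY329 replicate 1 (adjusted p = 0.0584). It was the 1 call among 7 phosphate and sulfur genes (14.3%, where 3.07% of all genes were called lower). The xylanase regulator gene xlr-1 had 30.2 and 17.2 CPM in AR16, against 1.36, 10.1 and 47.6 CPM, and was not called without ALS159 (adjusted p = 0.088) or without AR16 replicate 1 (adjusted p = 0.0655). The other 13 plant cell wall degradation genes tested were not called, so 7.14% were called higher, where 6.27% of all genes were. ccg-1, a clock-controlled and glucose-repressible gene used as a conidiation marker, had 3175 and 857 CPM in AR16, against 42.2, 1541 and 2819 CPM, and without AR16 replicate 1 its log2 fold change of 1.37 was 0.14 (edgeR adjusted p = 0.879), and with ALS159 left out of the mean it was 0.58 (adjusted p = 0.44). The other 12 conidiation genes were not called, so 7.69% were called higher, where 6.27% of all genes were.

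The remaining groups held few calls. Of 68 glycoside hydrolase genes tested, 3 were called higher and 5 lower, with a median of 0.05. These are 4.41% and 7.35% of the list, where 6.27% of all genes were called higher and 3.07% lower. gh13-2 had 0.750 and 0.589 CPM in AR16, against 0.895, 3.75 and 30.9 CPM (log2 fold change -2.78 ± 0.46 SE, edgeR adjusted p = 0.00615), below all others but close to OY350 replicate 2 at 0.895 CPM, with its call lost without AR16 replicate 2 (adjusted p = 0.0749). gh47-1 had 34.0 and 41.8 CPM in AR16, against 45.8 to 60.5 CPM, and gh3-6 had 1.37 and 1.41 CPM, against 1.60 to 6.998 CPM, with calls lost in 1 and 11 fits without 1 library (edgeR adjusted p up to 0.109 and 0.243). gh2-1 had 25.1 and 33.8 CPM in AR16, against 5.81 to 48.3 CPM, and lost its call without AR16 replicate 2 (adjusted p = 0.251). In central carbon metabolism gla-1, for glucoamylase, had 141 and 81.2 CPM in AR16, against 55.4 to 514 CPM, and its call was lost in 11 such fits (adjusted p up to 0.369), and it was the 1 call among 15 genes. The histone deacetylase gene hda-3 had 22.1 and 23.8 CPM in AR16, against 5.64 to 29.3 CPM, and lost its call without either AR16 replicate (adjusted p = 0.0605 and 0.172) and with OY329 left out of the mean (adjusted p = 0.0738). Of 18 histone acetylase, deacetylase and SET protein genes it was the 1 called higher (5.56%, against 6.27% of all genes). Called lower were set-2, set-7 and set-8 (16.7%, against 3.07% of all genes). Of these, set-8 is on the H3K27me2/3 list with a gain, and its 21.1 and 11.5 CPM in AR16 overlapped the 17.4 to 64.1 CPM of the others. The polyketide synthase gene pks-1 had 20.9 and 16.5 CPM in AR16, against 16.6 to 41.8 CPM, with the call lost in 9 such fits (adjusted p up to 0.3), and it was the 1 call among 4 tested. The calls of gla-1 and pks-1 are 6.67% and 25% of their lists, where 3.07% of all genes were called lower. The models of nuo10.6, eat-6, qa-3, stk-51, pex26, arg-3, ad-8, gh2-1, pks-1, pho-4, NCU00282, NCU00419 and NCU01976 also overlap another gene, and their counts are uncertain to that extent. The gene with the largest fitted rise of all unlisted genes above all 12 libraries, NCU06082 on LG VII, was barely read, with 14 and 11 counts in AR16, against 0 to 5 counts in the others.

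No gene was called among 13 light, clock and carotenoid genes, 7 heat shock genes, 7 RNA silencing genes, 4 vegetative incompatibility genes, the 4 vegetative growth markers, 30 proteasome genes or 17 citric acid cycle genes. The genes with the smallest p in these lists were wc-1 (log2 fold change -0.74, adjusted p = 0.112), hsp88 (0.51, adjusted p = 0.0559), qde-1 (0.29, adjusted p = 0.197), un-24 (0.29, adjusted p = 0.147), rpn-12 (0.37, adjusted p = 0.252) and tca-2 (0.68, adjusted p = 0.212), all by edgeR's quasi-likelihood test. A missed threshold with 2 AR16 libraries does not show that these genes were alike in AR16 and the other strains.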

How the data were processed

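The files analysed hold reads counted per gene for poly-A+ RNA of 7 strains, 2 libraries each. The counts were deposited by the authors as raw whole numbers per gene, with 5 rows of reads on no gene (5.61% to 26.3% of a library), which were left out. The submitters' processing notes name TopHat, SAMtools, HTSeq and DESeq without versions or roles, and strandedness, annotation release and build are not given in the sources used here. Of the gain and loss table only the other entries, the letters for gain or loss deposited by the authors, were used. Its fold changes and p-values come from the authors' comparison with wild type and were not used, nor was 1 column of values per sample. Strain and replicate number came from the labels, and the study gives the libraries as biological duplicates.

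Genes were filtered by filterByExpr by strain (8170 of 9730 kept), normalized by TMM and fitted with edgeR 4.0.16 (R 4.3.3) by quasi-likelihood with strain as the factor (common dispersion 0.0433). AR16 was contrasted with the mean of the 6 strains and with each strain, at a Benjamini-Hochberg adjusted p of 0.05. The SE is the size of the log2 fold change divided by the root of the F statistic. CPM use TMM library sizes, and log2 CPM a prior count of 2. The fit was tested on simulated counts in which the 6 other strains had the same mean at every gene. That test does not cover the differences among those strains. A count of 0 allows up to 3 counts, and these limits and the 95% exact binomial intervals cover counting error only. RefSeq matched 9729 genes and gave symbols, gene order and overlaps, with no coordinates used.

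The members, gene lists and tests were chosen with earlier results of these data known. The RefSeq table holds no product names, so groups planned by product were replaced by symbol patterns after the files were read. Named were, of unlisted called genes beyond all 12 libraries, the 10 largest changes each way with a symbol and the 5 largest each way of any annotation, then the mating genes, up to 3 called genes (otherwise the 1 with the smallest p) of each of 26 lists, and 3 listed genes. The matA-2, matA-3, mfa-1, pre-2 and act genes of this rule were not called, and the mat A genes, at 0 reads in AR16 and UK2-32, gave no usable fold. Genes named outside it were chosen after their values were seen. Alternatives were RLE and DESeq2 1.42.0 size factors and tests, no filter, 10 counts in every library, a replicate block, no strain term, each library left out, and each strain left out of the mean.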

Additional observations from a re-analysis of the deposited data

How the results depend on the processing

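The number of genes called lower in AR16 was 392 with DESeq2 (385 of them unlisted). Without a strain term 1 gene was called higher and 11 lower, all unlisted, and 90 and 191 passed an unadjusted p of 0.05 in those directions. Leaving UK2-32 out of the mean gave 307 genes called higher, 303 of them unlisted. The genes called against each of the 6 strains were 29 with at least 10 counts in every library. With OY329 left out, 72 genes were called against each of the remaining strains, a looser rule with fewer comparisons to pass. Over the fits that left out 1 library, genes called higher ran from 152 to 778 (unlisted 151 to 774), genes called lower from 63 to 377 (unlisted 61 to 370) and genes called against each strain from 22 to 60. Of 21 correlations between same-numbered libraries of 2 strains, 4 exceeded 0.1 (range -0.31 to 0.39), so replicate numbers did not pair the libraries throughout. Whether some strains shared a batch was not tested. A replicate block gave 700 genes called higher and 310 lower. OY329 has replicates 1 and 3, so the block gave OY329 replicate 3 a term of its own and took this library out of the comparison. The share of calls that were higher was 67.1%, and 61.0% to 69.3% under the other settings with a strain term and all libraries and strains. Of 61 named genes, 47 were called, and over 1209 refits of these, 199 lost the call, 42 of them without the strain term. The direction changed in 1, sod-2, with a log2 fold change of 0.016 when ALS159 was left out. The cause of these changes was not tested. The list medians stayed within 1 SD of the AR16 replicates in 598 of 676 refits, and for amino acid synthesis ran from 0.35 to 0.67.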
